A study of Mus musculus with 6 samples.

Results

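Striatal projection neuron identity genes are taken here as Drd1, Drd2, Adora2a, Ppp1r1b, Rgs9, Pde10a, Gpr6, Six3 and Ido1. The genes were given by name and matched exactly to the gene names of the count table: 9 of 9 were found among 50559 listed genes, and all 9 had enough counts to be tested among 22360. They were followed in bulk RNA sequencing of 6 C57 mouse libraries, of which 3 carry the genotype label WNT3 overexpressing and 3 the label WNT3 control. Wnt3 encodes a secreted Wnt ligand. The tissue is labelled auditory cortex, while the extraction text speaks of striatum, so the level of these genes also bears on the tissue label. How Wnt3 was overexpressed, in which cells, what the controls received, age and sex are not given in the labels, nor whether libraries come from separate animals. P-values therefore measure only the spread between these samples, which may be technical.

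Spiny projection neurons are the main neurons of the striatum. They fall into a direct pathway, marked by the dopamine receptor D1, and an indirect pathway, marked by the dopamine receptor D2 and the adenosine receptor encoded by Adora2a. Dopamine raises cyclic AMP through D1 and lowers it through D2, and DARPP-32, the phosphodiesterase PDE10A and the G protein regulator RGS9 act on these signals inside the cell. Several of these genes, among them Drd1 and Ppp1r1b, are also known to be expressed by some cortical neurons. In bulk tissue, fewer cells of a type and less RNA per cell cannot be told apart.

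Upstream sequence was at hand for 6 of the 9 genes (RefSeq annotation of GRCm38.p6, the mm10 assembly, 250 bases before an annotated start). It is shown for Drd1, Drd2 and Six3, whose profiles over the libraries were close to each other, and for Gpr6, whose unadjusted p was the smallest of the members. The windows are chr13:54055659-54055908 on the minus strand for Drd1 (1 of 2 annotated starts), chr9:49340153-49340402 on the plus strand for Drd2, chr17:85620584-85620833 on the plus strand for Six3 and chr10:41072291-41072540 on the minus strand for Gpr6. Capitals mark exact matches, on either strand, to the TCF/LEF core CTTTGA, the GC box GGGCGG or the short core TGACG of the cyclic AMP response element.
Drd1: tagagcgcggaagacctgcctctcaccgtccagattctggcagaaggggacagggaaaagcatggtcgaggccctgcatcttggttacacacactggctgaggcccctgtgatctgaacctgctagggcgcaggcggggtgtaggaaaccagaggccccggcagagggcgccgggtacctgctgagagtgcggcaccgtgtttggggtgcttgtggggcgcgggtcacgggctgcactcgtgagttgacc
Drd2: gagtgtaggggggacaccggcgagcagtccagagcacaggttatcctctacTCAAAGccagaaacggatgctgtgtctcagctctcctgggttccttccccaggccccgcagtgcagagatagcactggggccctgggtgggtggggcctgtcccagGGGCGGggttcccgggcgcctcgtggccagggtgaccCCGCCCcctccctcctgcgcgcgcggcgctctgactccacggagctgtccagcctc
Six3: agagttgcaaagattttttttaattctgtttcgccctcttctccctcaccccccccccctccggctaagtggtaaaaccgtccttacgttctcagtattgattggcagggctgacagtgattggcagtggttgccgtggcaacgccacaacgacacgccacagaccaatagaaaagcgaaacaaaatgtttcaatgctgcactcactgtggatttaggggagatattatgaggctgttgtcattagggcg
Gpr6: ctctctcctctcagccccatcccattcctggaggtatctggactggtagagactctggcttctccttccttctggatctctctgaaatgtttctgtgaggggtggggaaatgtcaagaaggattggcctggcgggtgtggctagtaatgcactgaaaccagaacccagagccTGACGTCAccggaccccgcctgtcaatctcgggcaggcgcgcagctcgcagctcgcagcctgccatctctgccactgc
Of 32851 such windows over the genome, 13.8% hold the TCF/LEF core, 32.7% the GC box, 17.8% the short core and 1.55% the full element TGACGTCA. Drd2 holds the TCF/LEF letters 199 bases before the start and the GC box 93 and 56 bases before it. Gpr6 holds the full element 78 bases before the start, within which the short core is read on both strands. The windows of Drd1 and Six3 printed here hold none of these letters, and the window of the other Drd1 start, not printed, holds a GC box 133 bases before that start. A match describes the letters and is not a measured binding site.

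Total counts per library lay between 42614588 and 71803617. Wnt3 stood at 98.8, 7.45 and 8.71 CPM in the overexpression libraries, against 2.70, 1.91 and 1.74 CPM in control libraries (CPM, counts scaled to library size with TMM factors), so the groups did not overlap, and overexpression library 1 was far above the other libraries. Its log2 fold change was 4.18 ± 1.02 (SE), with an adjusted p of 0.822 by edgeR, and 1.94 without overexpression library 1. Control 2 stood apart by transcript length: relative to the mean of controls, its median log2 difference came to 0.55 for the shortest 25% of transcripts and -0.39 for the longest, against -0.28 to -0.21 and 0.18 to 0.22 in the other 5 libraries.

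Every library held cortical excitatory transcripts well above the striatal receptor transcripts, while Ppp1r1b stood above most cortical genes of the list. In TPM (a measure per transcript length, which allows genes to be compared), the median of the 9 striatal identity genes was 2.46, 1.83 and 4.35 in the overexpression libraries and 1.66, 4.06 and 10.5 in the controls. The median of 23 cortical excitatory and layer genes was 41.1, 44.0 and 40.4 TPM in the overexpression libraries and 43.2, 31.4 and 41.4 TPM in the controls. All 23 cortical genes stood above Drd2 in each of the 6 libraries, and 20 to 22 of them stood above Drd1, but 4 to 7 stood above Ppp1r1b. The median of 23 other genes of striatal projection neurons was 25.2, 27.97 and 34.5 TPM in the overexpression libraries and 33.0, 18.9 and 39.5 TPM in the controls. It lay below the cortical median in each library and nearest to it in control 3. These genes averaged from 0.61 TPM (Serpina9) to 249 TPM (Arpp21), and how much of their RNA came from cortical neurons was not tested. Slc17a7, the vesicular glutamate transporter gene of cortical excitatory neurons, had 36.7 to 101 times the TPM of Drd1. The cortical transcription factor gene Tbr1 (59.0 to 73.5 TPM in overexpression and 49.6 to 77.6 TPM in controls) was present throughout. Chat, the acetylcholine synthesis enzyme of striatal interneurons, was at 0.15, 0.55 and 0.15 TPM in the overexpression libraries, against 0, 0.052 and 0.66 TPM in control libraries. The 23 cortical genes were listed as general genes of cortical excitatory neurons and layers, and how much of their RNA came from other neurons, striatal ones included, was not tested. None that sets auditory cortex apart from other cortex was examined. No library of dissected striatum was analysed here for comparison.

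**Figure D1:**
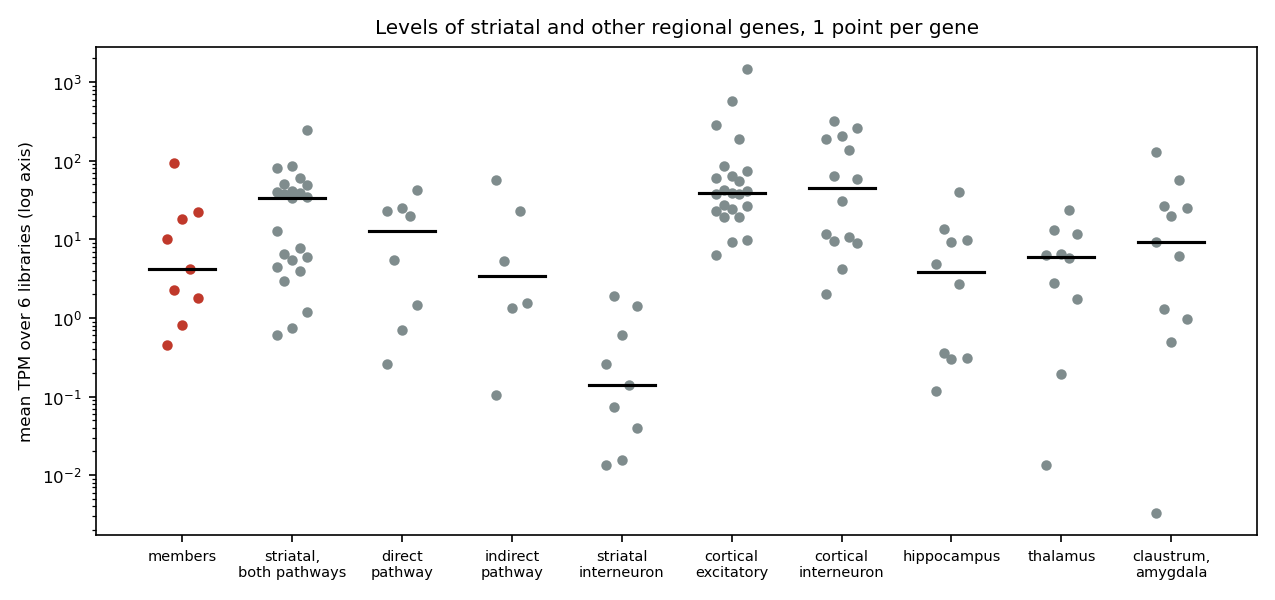
Mean TPM over the 6 libraries (log axis) of each striatal identity gene and of the genes of other regional lists, 1 point per gene, with a mark at each list's median. The striatal identity genes run from 0.45 TPM for Six3 to 93.9 TPM for Ppp1r1b.

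The 9 genes differed widely in level. Averaged over the 6 libraries, Ppp1r1b was highest at 93.9 TPM, and its lowest library (65.6 TPM) lay above every library of the other 8 genes. Pde10a (5.50 to 30.3 TPM), Rgs9 (11.2 to 29.6 TPM) and Drd1 (5.77 to 15.2 TPM) came next, with ranges that overlapped. Adora2a (1.66 to 10.5 TPM), Drd2 (0.57 to 5.47 TPM) and Gpr6 (0.34 to 3.04 TPM) followed, and their ranges overlapped too. Ido1 (mean 0.81 TPM) and Six3 (0 to 1.77 TPM) were lowest and did not differ beyond their spread.

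The dopamine receptor genes differed more between libraries than between the genotypes. Drd1, the receptor of the direct pathway (chromosome 13, 54051183 to 54055705, minus strand, mm10, GENCODE M21), was at 13.1, 8.19 and 22.4 CPM in the overexpression libraries, against 11.2, 13.8 and 22.2 CPM in control libraries. Library 3 was the highest of each group, and the groups spanned nearly the same range. The log2 fold change of overexpression over control was -0.11 ± 0.39 (SE), with a 95% interval of -1.02 to 0.79, and 0.22 without control 3. Drd2, the receptor of the indirect pathway (chromosome 9, 49340627 to 49408177, plus strand), was at 1.09, 0.64 and 3.94 CPM in the overexpression libraries, against 1.34, 3.04 and 6.35 CPM in control libraries. Library 3 was again the highest of each group, and only control 3 lay above every overexpression library. The log2 fold change of Drd2 was -0.92 ± 0.75 (SE), with a 95% interval of -2.64 to 0.80. It was -0.21 without control 3 and -2.05 without overexpression library 3. Drd5, the close relative of Drd1, was at 0.70, 0.74 and 0.87 CPM in the overexpression libraries, against 0.52, 1.14 and 1.80 CPM in control libraries. Drd3, another D2-type receptor gene, had 0, 0 and 8 counts in overexpression libraries and 0, 4 and 10 in controls, too few to be tested.

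Adora2a and Gpr6 encode receptors of indirect-pathway neurons that raise cyclic AMP. Adora2a, the adenosine receptor gene (chromosome 10, 75316877 to 75334784, plus strand), was at 2.41, 1.94 and 4.62 CPM in the overexpression libraries, against 1.81, 6.40 and 11.3 CPM in control libraries. In CPM, controls 2 and 3 lay above every overexpression library and control 1 below them all. In TPM, control 2 (4.06 TPM) lay below overexpression library 3 (4.35 TPM). The fitted log2 fold change was -1.12 ± 0.62 (SE), with a 95% interval of -2.53 to 0.30, and -0.45 without control 3. Gpr6, an orphan receptor gene (chromosome 10, 41069977 to 41072285, minus strand), was at 1.07, 0.26 and 1.27 CPM in the overexpression libraries, against 0.87, 3.26 and 2.29 CPM in control libraries, from 60, 16 and 91 counts in overexpression libraries and 37, 178 and 116 in controls. Control 1 fell among the overexpression libraries, so these groups overlapped too. By relative transcript length Gpr6 was at percentile 27.9 of tested genes, and in TPM control 2 (3.01 TPM) was not above control 3 (3.04 TPM). The log2 fold change of Gpr6 was -1.30 ± 0.66 (SE), with a 95% interval of -2.82 to 0.21. Its unadjusted p of 0.0819 was the smallest of the 9 genes, and its adjusted p was 0.822 (edgeR).

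The signalling proteins inside the cell followed several orders of libraries. Ppp1r1b encodes DARPP-32, a phosphatase inhibitor switched on by cyclic AMP signalling (chromosome 11, 98348404 to 98357796, plus strand), and was at 51.3, 118 and 79.1 CPM in the overexpression libraries, against 54.4, 92.2 and 93.3 CPM in control libraries. Its highest library was overexpression library 2, the lowest for Drd1, Drd2 and Gpr6. The log2 fold change was 0.047 ± 0.33 (SE), with a 95% interval of -0.70 to 0.80. Rgs9, a regulator that shortens D2 receptor signalling (chromosome 11, 109225355 to 109298129, minus strand), was at 32.0, 29.6 and 56.2 CPM in the overexpression libraries, against 25.2, 25.9 and 69.3 CPM in control libraries. Library 3 stood above the other libraries of its group in each genotype, as for the dopamine receptors. Its log2 fold change was -0.032 ± 0.43 (SE), with a 95% interval of -1.02 to 0.96, and 0.62 without control 3.

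Pde10a, a phosphodiesterase that breaks down cyclic AMP and cyclic GMP (chromosome 17, 8525372 to 8986648, plus strand), was at 85.7, 81.0 and 80.7 CPM in the overexpression libraries, against 113, 28.5 and 100.02 CPM in control libraries. Control 2 was low, and the other 5 libraries lay above it and closer together. By relative transcript length Pde10a was at percentile 93.2 of tested genes, and control 2 is the library in which long transcripts were low. The fold change was, on the log2 scale, 0.035 ± 0.43 (SE), -0.37 without control 2 and 0.040 with the length trend removed.

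Six3 and Ido1 had the fewest reads of the 9 genes. Six3, a homeobox transcription factor needed for indirect-pathway neurons in mouse (chromosome 17, 85613608 to 85629302, plus strand), was at 0.30, 0 and 0.85 CPM in the overexpression libraries, against 0, 0.46 and 2.73 CPM in control libraries, from 17, 0 and 61 counts in overexpression libraries and 0, 25 and 138 in controls. A count of 0 allows up to 0.0482 CPM in overexpression library 2 and 0.0704 CPM in control 1 (floor of 3 counts, counting error only). Each group thus held 1 library without a read and had its highest value in library 3. The log2 fold change was -1.45, with a 95% interval of -4.90 to 2.01, and 0.73 without control 3. Six3os1 lies on the opposite strand at the same place and had 4, 16 and 16 counts in overexpression libraries and 0, 10 and 50 in controls. The strand setting of the counting is not given in the sources used here, so reads of this pair cannot be told apart.

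Ido1, an enzyme that opens the breakdown of tryptophan to kynurenine and is inducible by interferon (chromosome 8, 24584136 to 24597009, minus strand), was at 0.64, 0.53 and 0.39 CPM in the overexpression libraries, against 0.40, 0.48 and 1.048 CPM in control libraries. Control 3 was highest, and the other 5 libraries lay close together. Its log2 fold change was -0.30 ± 0.51 (SE), with a 95% interval of -1.48 to 0.87, and 0.25 without control 3. The summed level of 15 interferon-stimulated genes, among them Ifit3 and Bst2, was 218, 57.02 and 58.0 TPM in overexpression and 63.7, 44.0 and 70.0 TPM in controls. Overexpression library 1, the highest by that sum, was the highest of its group for Ido1 and stood below control 3.

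**Figure D2:**
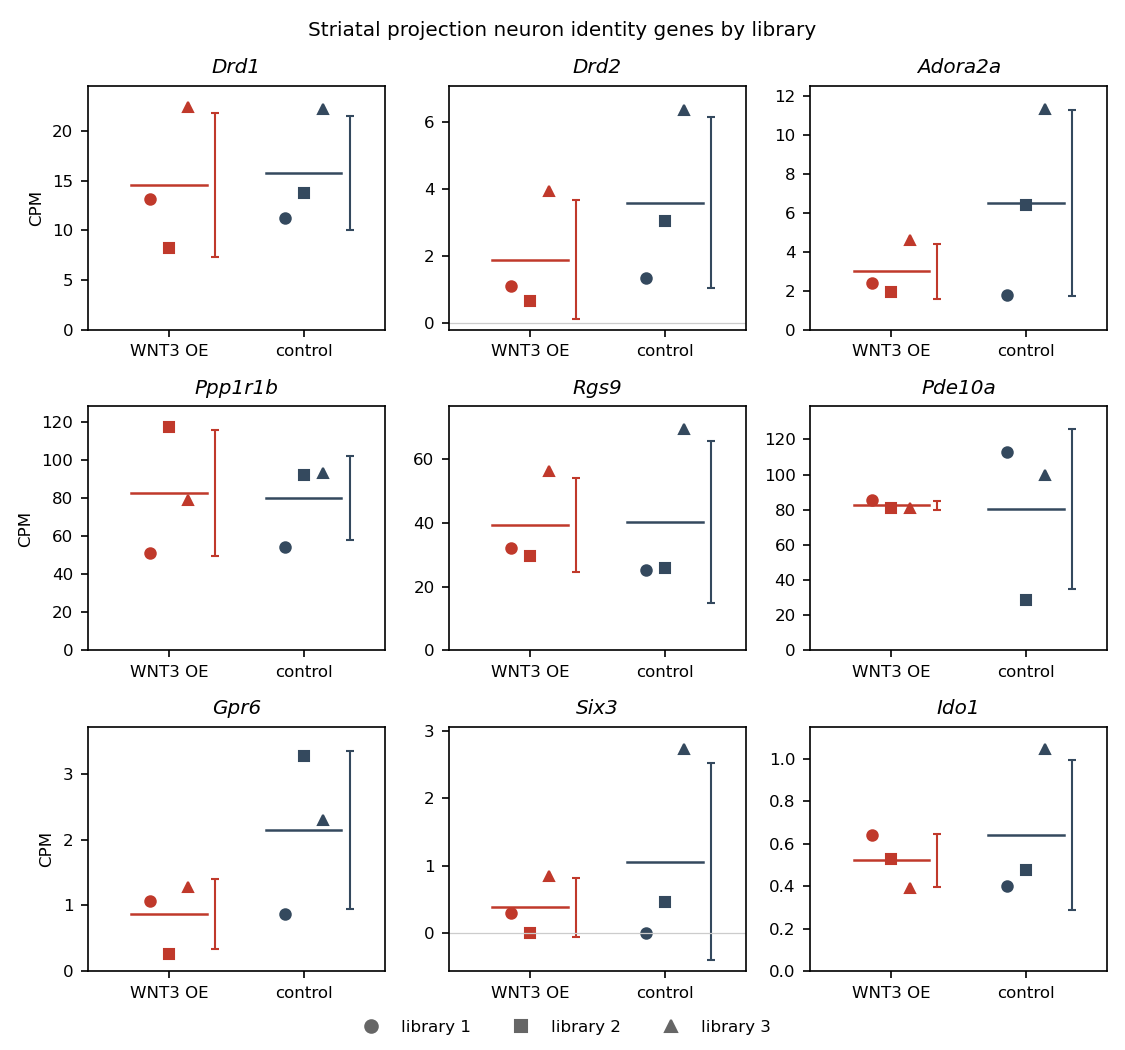
Expression of the 9 genes in CPM (vertical axes, each with its own scale) in the WNT3 overexpression libraries (left) and the control libraries (right), with the mean and a bar of 1 SD (n = 3 each). The groups overlap in every panel, and library 3 is the highest of both groups for Drd1, Drd2, Adora2a, Rgs9 and Six3.

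Set against all genes, no member passed the test between the genotypes. With edgeR (quasi-likelihood, Benjamini-Hochberg over 22360 genes), 0 of the 9 reached an adjusted p under 0.05, where 0% of all tested genes did. An unadjusted p under 0.05 was reached by 0 of the 9, where 4.65% of all tested genes reached it (1.86% higher and 2.8% lower in overexpression). DESeq2 called 0 of the 9, where it called 0.25% of the genes it adjusted, and it gave an unadjusted p under 0.05 to 1 of them, Gpr6. With 1 library left out, edgeR gave an unadjusted p under 0.05 to Gpr6 and Adora2a without control 1, to Drd2 without overexpression library 3 and to Pde10a without control 2, and called 0 of the 9. The groups did not overlap in CPM for 0 of the 9, where they did not overlap for 11.9% of all tested genes (5.89% higher and 6.04% lower in overexpression). Fitted log2 fold changes were below 0 for 7 of the 9, where 50.7% of all tested genes were below 0 and 49.3% above. Ppp1r1b and Pde10a were the members above 0.

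The median log2 fold change of the 9 genes was -0.30, beside -0.0069 over all tested genes. It was 0.22 without control 3 and -0.57 without overexpression library 3, so its direction rests on control 3. On the TPM scale, where the median of all tested genes shifted to 0.14 with a pseudocount of 1 and 0.22 with 0.1, the median of the 9 genes was -0.015 and 0.020. The 95% intervals were widest for Six3, Drd2 and Gpr6 and narrowest for Ppp1r1b, where they still span -0.70 to 0.80.

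**Figure D3:**
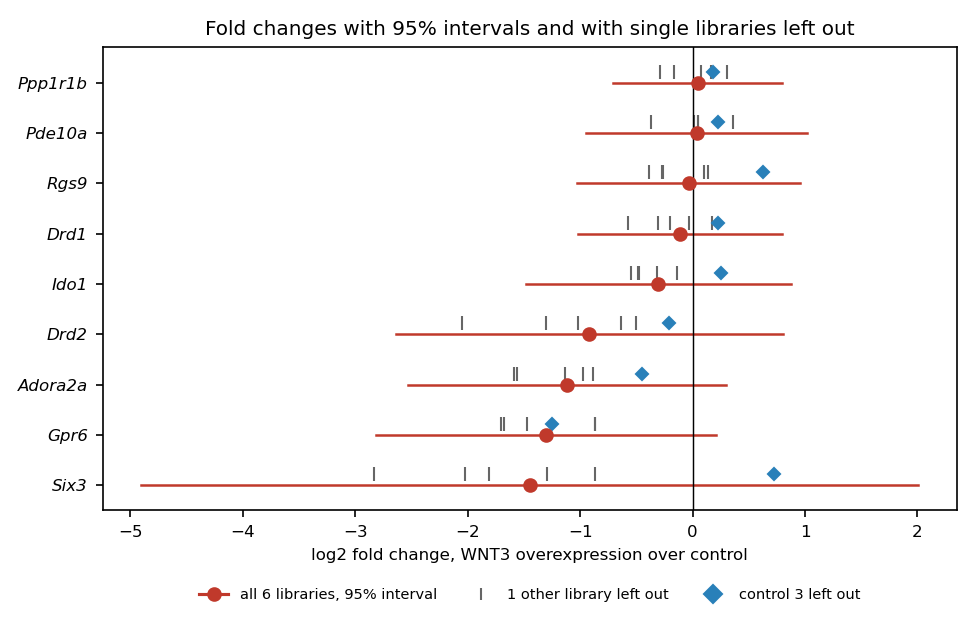
Log2 fold change of WNT3 overexpression over control for the 9 genes (horizontal axis), with the 95% interval of the fit on 6 libraries and the values with 1 library left out. Every interval includes 0, and without control 3 Six3 is at 0.73 and Adora2a at -0.45.

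The members spread widely between libraries of the same group. The pooled within-group SD of log2 CPM was 1.22 for Drd2, beside a median of 0.48 over genes within 0.5 log2 units of its level. It was 1.052 for Adora2a, beside 0.42, and 2.80 for Six3, beside 0.72. For 8 of the 9 genes the SD lay above the 90th percentile of genes of like level, from 91.2 for Ppp1r1b upward. Ido1, at percentile 42.3, was the exception.

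Part of this spread followed the library. Control 3 was the highest control for 7 of the 9 genes, where it was so for 28.6% of all tested genes. Overexpression library 3 was the highest of its group for 6 of the 9, where it was so for 33.4% of all tested genes. Both held for Drd1, Drd2, Adora2a, Rgs9 and Six3, which is 5 of the 9, where both held for 9.56% of all tested genes. The libraries were singled out after the values of the members were seen, so these shares describe the members and are no test. Averaged over the 9 genes, the log2 difference to the mean of controls was -0.43, -1.11 and 0.22 for overexpression and -0.92, -0.03 and 0.95 for controls. Six3 weighed most in this mean profile, at -3.36 in overexpression library 2 and in control 1, both without a read, and 2.92 in control 3. The medians of the 9 genes were -0.20, -0.88 and 0.23 for overexpression and -0.52, 0.04 and 0.80 for controls. Control 1 lay below overexpression libraries 1 and 3 by mean and by median.

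Pearson's r of each gene with the mean profile of the other 8 describes how far they moved together over the 6 libraries, which fall into 2 genotypes and differ in depth. It was 0.93 for Adora2a, 0.93 for Six3, 0.92 for Drd2 and 0.91 for Drd1. Rgs9 at 0.79, Gpr6 at 0.68 and Ido1 at 0.52 were looser. Ppp1r1b at 0.11 and Pde10a at -0.20, the most abundant members, did not share the profile.

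**Figure D4:**
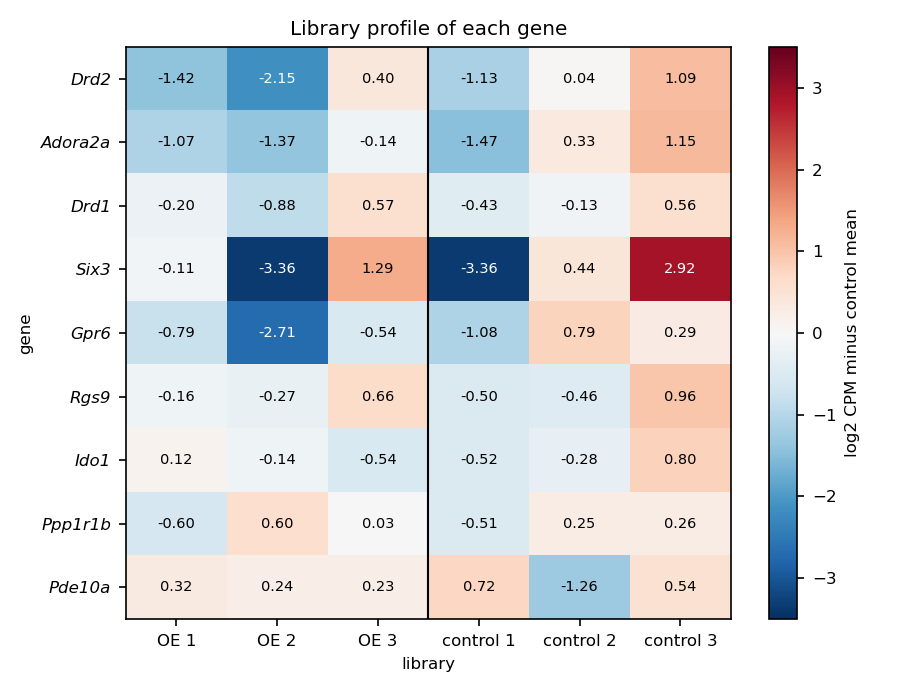
Log2 CPM minus the control mean (colour and printed value) of the 9 genes (down the page) in each library (across), overexpression libraries on the left. Drd2, Adora2a, Drd1, Six3 and Rgs9 are above the control mean in control 3 and below it in control 1 and in overexpression libraries 1 and 2.

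The genes shared by both striatal pathways often had the same highest libraries, with other counts for the separate pathways. Of 23 genes shared by both pathways, 18 had control 3 as the highest control, 16 had overexpression library 3 as the highest of its group, and 13 had both. Of 7 tested direct-pathway genes, 2 had control 3 as the highest control (28.6%, as over all tested genes), 4 had overexpression library 3 as the highest of its group, and 1 had both. Of 5 tested indirect-pathway genes, 3 had the first, 4 the second and 2 both. Syndig1l, which encodes a synaptic membrane protein, was at 1.87, 1.46 and 6.26 CPM in the overexpression libraries, against 2.32, 8.01 and 8.52 CPM in control libraries. Lrrc10b, a leucine-rich repeat gene, was at 2.37, 1.64 and 4.62 CPM in the overexpression libraries, against 2.60, 5.59 and 8.03 CPM in control libraries. Isl1, a transcription factor gene of direct-pathway neurons, had 4, 0 and 32 counts in overexpression libraries and 0, 10 and 52 in controls, too few to be tested. The libraries with no read of Isl1 were also those with no read of Six3.

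Between the genotypes, 0 passed, 4 were higher and 19 lower (0 at an unadjusted p under 0.05) among these 23 genes by edgeR. Their median log2 fold change was -0.16, or -0.26 to -0.035 with single libraries left out, and 0.033 on the TPM scale with its shifted median. The most abundant were Arpp21, a cyclic AMP-regulated phosphoprotein gene (-0.16 ± 0.20, log2 ± SE), the phosphodiesterase gene Pde1b (-0.10 ± 0.17), the phosphatase gene Ptpn5 (-0.17 ± 0.17) and Gnal (0.037 ± 0.26). Gnal encodes the G protein that couples the D1 and Adora2a receptors to adenylyl cyclase in striatum.

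Genes of the separate pathways gave no call either. Of 7 tested direct-pathway genes, 0 passed, 4 were higher and 3 lower (0 at an unadjusted p under 0.05) by edgeR, and the median of their log2 fold changes was 0.0082, or -0.33 to 0.16 with single libraries left out. Tac1, the substance P precursor, was at 5.55, 4.32 and 12.1 CPM in the overexpression libraries, against 7.02, 21.03 and 15.0 CPM in control libraries, a log2 fold change of -0.97 ± 0.49 (SE). By relative transcript length Tac1 was at percentile 12.2, and control 2 is the library in which short transcripts were high. In TPM, control 2 (33.7 TPM) lay below control 3 (34.6 TPM). Pdyn, the dynorphin precursor (0.25 ± 0.20, log2 ± SE), the muscarinic receptor gene Chrm4 (-0.50 ± 0.28) and the mitochondrial transporter gene Sfxn1 (0.074 ± 0.16) did not pass.

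Of 5 tested indirect-pathway genes, 0 passed, 3 were higher and 2 lower (1 at an unadjusted p under 0.05, Penk) by edgeR, and the median of their log2 fold changes was 0.25, or -0.35 to 0.55 with single libraries left out and -0.04 by DESeq2. Penk, the enkephalin precursor, was at 12.6, 11.1 and 29.1 CPM in the overexpression libraries, against 26.4, 53.0 and 70.1 CPM in control libraries. Only overexpression library 3 reached above the lowest control. Its log2 fold change was -1.5005 ± 0.46 (SE), with an unadjusted p of 0.0107 and an adjusted p of 0.822 by edgeR, and it lay between -2.08 and -1.17 over all other settings. The kainate receptor gene Grik3 (0.47 ± 0.25, log2 ± SE), the orphan receptor gene Gpr52 (0.25 ± 0.48) and Ttc12 (0.76 ± 0.35) were above 0 without passing. Ttc12 was the 1 gene of the 5 whose groups did not overlap in CPM (11.9% of all tested genes).

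Ratios within a library set the pathways beside each other. The ratio of Drd2 to Drd1 in TPM was 0.10, 0.099 and 0.22 in the overexpression libraries, against 0.15, 0.28 and 0.36 in control libraries. That of Adora2a to Drd1 was 0.26, 0.32 and 0.29 in the overexpression libraries, against 0.22, 0.63 and 0.70 in control libraries, and that of Penk to Tac1 was 1.81, 2.04 and 1.92 in the overexpression libraries, against 3.05, 2.01 and 3.73 in control libraries. In each ratio the groups overlapped, with the lower mean in overexpression. The two-sided exact permutation p was 0.2 for Drd2 to Drd1, 0.4 for Adora2a to Drd1 and 0.2 for Penk to Tac1, and 0.7 for Drd2 to Adora2a, the last of 4 ratios computed (n = 3 each). With 3 against 3 libraries this test cannot go below 0.1. The ratios were chosen after the values were seen.

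**Figure D5:**
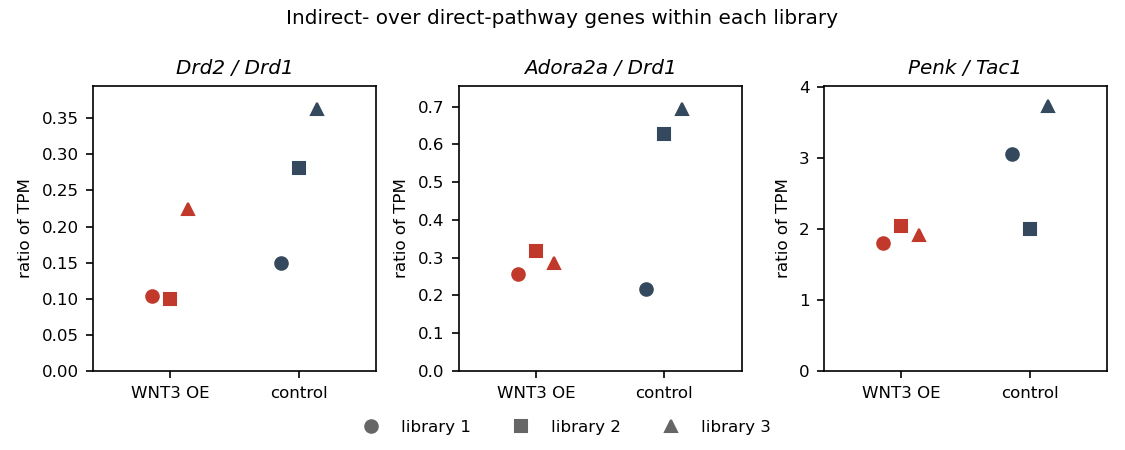
Ratios of TPM between genes of the indirect and direct pathways (vertical axes) within each WNT3 overexpression library (left) and control library (right), 1 point per library. For Adora2a to Drd1 the overexpression libraries lie at 0.26 to 0.32 and the controls at 0.22 to 0.70.

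The signalling partners of the members also gave no call by edgeR. Of 20 cyclic AMP and DARPP-32 signalling genes, 0 passed, 7 were higher and 13 lower (1 at an unadjusted p under 0.05, Adcy8), and the median of their log2 fold changes was -0.064 (0.13 on the TPM scale). Their most abundant genes were the G protein genes Gnas (-0.28 ± 0.21, log2 ± SE) and Gnao1 (-0.060 ± 0.17), the calcineurin gene Ppp3ca (-0.32 ± 0.18) and the protein kinase A subunit gene Prkar1b (-0.12 ± 0.15). The groups did not overlap in CPM for 4 of the 20 genes, among them Ppp3ca and Adcy8 (11.9% of all tested genes). Of 15 other phosphodiesterase genes, 0 passed, 11 were higher and 4 lower (0 at an unadjusted p under 0.05), with a median of 0.15. Pde2a (0.22 ± 0.17), Pde1a (0.32 ± 0.22), Pde4b (0.15 ± 0.22) and Pde4a (-0.016 ± 0.21) were the most abundant of these enzymes, which break down cyclic nucleotides.

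Of 14 other RGS genes and partners of RGS9, 0 passed, 5 were higher and 9 lower (1 at an unadjusted p under 0.05, Rgs4) by edgeR, and the median of their log2 fold changes was -0.094 (0.10 on the TPM scale). Rgs4, a regulator of G protein signalling, was at 303, 289 and 279.6 CPM in the overexpression libraries, against 493, 377 and 423 CPM in control libraries, without overlap, while its TPM did overlap (228 to 265 TPM in overexpression and 212 to 404 TPM in controls). Its log2 fold change was -0.57 ± 0.16 (SE), with an unadjusted p of 0.0079 and an adjusted p of 0.822 by edgeR. Rgs7bp, a membrane anchor of RGS9 (0.020 ± 0.18, log2 ± SE), its partner gene Gnb5 (-0.34 ± 0.19) and its relative Rgs7 (-0.23 ± 0.16) did not pass. For 4 of the 14 genes, among them Rgs4 and Rgs7, the groups did not overlap in CPM (11.9% of all tested genes). In TPM, Rgs7 did overlap (66.0 to 87.5 TPM in overexpression and 56.5 to 91.2 TPM in controls).

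Relatives of the receptors and enzymes were likewise without a call by edgeR. Of 10 adenosine genes and orphan receptors, 0 passed, 4 were higher and 6 lower (1 at an unadjusted p under 0.05, Adora2b), and the median of their log2 fold changes was -0.20. The adenosine A1 receptor gene Adora1 (-0.24 ± 0.21, log2 ± SE) averaged 89.8 TPM, beside 4.14 TPM for Adora2a. Adk, the adenosine kinase gene (-0.19 ± 0.17), the nucleoside transporter gene Slc29a1 (0.041 ± 0.26) and Gpr12, a relative of Gpr6 (-0.42 ± 0.22), did not pass. Of 7 tested dopamine genes, 0 passed, 4 were higher and 3 lower (0 at an unadjusted p under 0.05), with Maoa (0.068 ± 0.17), Maob (0.018 ± 0.20) and Ddc (0.46 ± 0.36), enzymes of dopamine breakdown and synthesis, among the more abundant. Of 6 tested kynurenine pathway genes, 0 passed, 5 were higher and 1 lower (0 at an unadjusted p under 0.05), with Kyat1 (0.12 ± 0.19), Kyat3 (0.32 ± 0.25), Afmid (0.17 ± 0.29) and Ido2, the relative of Ido1 (0.38 ± 0.35), as the most abundant. Of 3 tested relatives of Six3, 0 passed, 2 were higher and 1 lower (0 at an unadjusted p under 0.05): Six5 at 0.32 ± 0.32, Six4 at 0.13 ± 0.35 and Six3os1 at -1.08 ± 1.19 (log2 ± SE), and Six2 had too few counts.

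Markers of neighbouring regions differed between libraries too, and their part in the levels of the members was not tested. Of 10 tested claustrum and amygdala genes, 8 were highest in library 3 of the overexpression group, and the list summed to 321, 184 and 484 TPM in overexpression and 251, 178 and 239.7 TPM in controls, with Sim1 at 0 TPM in some libraries. Nr4a2, a transcription factor gene of claustrum neurons, was at 73.7, 36.9 and 164 CPM in the overexpression libraries, against 63.5, 79.3 and 68.0 CPM in control libraries. All 8 tested hippocampal genes had control 3 as the highest control, and that list, led by Wfs1, Neurod1 and Man1a, summed to 125, 81.8 and 72.5 TPM in overexpression and 68.9, 36.2 and 99.5 TPM in controls. Striatal interneuron genes, led by Pthlh, Th and Slc5a7, summed to 3.60 to 5.70 TPM in overexpression and 3.11 to 5.76 TPM in controls, and Chat, Slc18a3, Lhx8, Gbx2 and Nkx2-1 were among those at 0 in some libraries.

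Other cell types gave the following sums. Cortical excitatory genes, led by Nrgn, Slc17a7 and Mef2c, summed to 2832 to 3027 TPM in overexpression and 3057 to 3933 TPM in controls, and cortical interneuron genes, led by Sst, Cck and Gad1, to 991 to 1296 TPM in overexpression and 1135 to 1903 TPM in controls. The cortical excitatory sums did not overlap, but Nrgn alone averaged 1144 TPM in overexpression and 1780 TPM in controls. Of the 23 cortical excitatory genes, 9 were higher and 14 lower by edgeR, and the median lay at -0.050 (log2). In CPM the groups did not overlap for 2 of these genes, Emx1 and Lamp5 (11.9% of all tested genes). By edgeR 3 of them had an unadjusted p under 0.05, among them Nrgn (-0.96 ± 0.39, log2 ± SE) and Lamp5 (-0.93 ± 0.19). Lamp5 was also called by DESeq2. Sst (-1.02 ± 0.44) and Cck (-1.06 ± 0.46) of the interneuron list also had an unadjusted p under 0.05. Of the 14 genes of that list, 6 were higher and 8 lower by edgeR, with a median of -0.061 (log2). For 2 of the 14 the groups did not overlap in CPM (11.9% of all tested genes), among them Gad1, which was higher in overexpression (0.39 ± 0.19). None of the 23 cortical excitatory genes had library 3 as the highest of both groups. Thalamic genes (Rora, Slc17a6 and Ramp3 foremost) summed to 71.2 to 77.9 TPM in overexpression and 55.3 to 79.5 TPM in controls, and astrocyte genes (Slc1a2, Aldoc and Slc1a3) to 2594 to 2823 TPM in overexpression and 1557 to 2835 TPM in controls. Oligodendrocyte genes (Mbp and Mobp among them) summed to 2746 to 5654 TPM in overexpression and 4169.8 to 4399 TPM in controls, and all 10 were highest in library 3 of the overexpression group. Microglial genes (C1qa and C1qb among them) summed to 668, 396 and 484 TPM in overexpression and 440.1, 573 and 505 TPM in controls. In CPM all 10 were lowest of their group in overexpression library 2 and in control 1. The mean profile of the members was also lowest of its group in these libraries. In CPM, overexpression library 2 was lowest of its group for 6 of the 9 members (34.3% of all tested genes) and control 1 for 8 (28.5%). These libraries too were singled out after the values of the members were seen. In TPM, control 2 lay below control 1 for Drd1 (6.47 and 7.69 TPM) and Ido1 (0.46 and 0.56 TPM). Endothelial genes (Ly6c1, Ly6a and Slco1a4) summed to 338 to 608 TPM in overexpression and 228 to 301 TPM in controls, without overlap, and 0 of the 10 passed by edgeR (4 at an unadjusted p under 0.05: Flt1, Pecam1, Abcb1a and Vwf, with Vwf also called by DESeq2). Whether these cells share in the values of the members was not tested.

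Among 16652 other genes with a mean of 1 CPM or more, those most like the mean profile of the 9 members were Gm8337, Pprc1, Nuf2, Gem, Ccdc137, Bmt2, Gng7, Peak1os, Cln8 and LOC118568302, with Pearson's r of 0.95 to 0.99 over 6 libraries. Gng7, the G protein gamma subunit that pairs with Gnal in striatal neurons, was at 63.7, 48.3 and 71.3 CPM in the overexpression libraries, against 56.5, 74.7 and 121 CPM in control libraries. Of 22 striatal genes of both pathways at that level, 15 (68.2%) were among the 5% of genes with the highest r. For cortical excitatory genes this was 3 of 23 (13%), for cyclic AMP and DARPP-32 partners 3 of 20 (15%), for direct-pathway genes 3 of 7 (42.9%) and for indirect-pathway genes 2 of 5 (40%). For striatal interneuron genes it was 1 of 3 (33.3%), for hippocampal genes 1 of 6 (16.7%) and for microglial genes 1 of 10. For the claustrum and amygdala, astrocyte, oligodendrocyte and endothelial lists it was 0 of 10 each. These shares describe 6 libraries and carry no test.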

How the data were processed

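Per the labels, a TruSeq kit was used on RNA of tissue called auditory cortex, keeping the strand. Titles and genotype labels gave 2 groups of 3, and table columns were matched to samples by library name. The authors deposited whole-number counts per gene and TPM values per gene. FastQC 0.11.5, STAR 2.5.3a, Cuffnorm, DESeq 1.16.1 and mm10 are named, without roles, in the submitters' processing notes. Counting program and annotation: not given in the sources used here.

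Genes passing filterByExpr (minimum count 10) were tested with edgeR 4.0.16 (R 4.3.3, quasi-likelihood, TMM, genotype alone in the design), with p-values adjusted by Benjamini-Hochberg over 22360 genes at 0.05. The SE was derived from the fold change and its F statistic, and 95% intervals from the t distribution. Profiles use log2 CPM with a prior count of 2. The test was tried on simulated counts of 21687 genes. It recovered 17 of 100 genes changed 2-fold and 85 of 100 changed 4-fold, with 7 false calls, so most 2-fold changes were missed there. The changed genes were drawn from those with a mean of 1 CPM or more, while Six3 (0.72 CPM) and Ido1 (0.58 CPM) averaged less. For 8 of the members the spread lay above the 90th percentile of genes of like level. The recovered shares therefore cannot be carried over to the members. Alternatives were DESeq2 1.42.0, limma 3.58.1 (voom, and trend on log2 TPM with pseudocounts of 1 and 0.1), other scalings and filters, a replicate block and the omission of each library. Removal of a length trend was chosen after seeing the data. Chi-square comparison of replicates found no duplicated library.

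The members and the 21 other lists were chosen with earlier results of these data known. By rule the text names the members, Wnt3, the 3 or 4 most abundant genes of each list, any called gene of the lists and the 10 genes most alike in profile. Some genes that the rule names are not reported here. Drd3, Drd5, Tbr1, Chat, Isl1, Syndig1l, Lrrc10b and genes given only as being at 0 or under an unadjusted p of 0.05 were named after their values were seen.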

Additional observations from a re-analysis of the deposited data

How the results depend on the processing

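Over the 17 other settings, Adora2a, Drd2 and Gpr6 kept a log2 fold change below 0, from -1.59 to -0.45, -2.05 to -0.21 and -1.70 to -0.64, and no setting called any of the 9 genes. The other 6 changed direction under some settings, for reasons that were not tested. Drd1 (-0.11 with all libraries) was 0.052 by limma-trend on log2(TPM + 1) with or without a mean TPM minimum of 0.5 and 0.055 on log2(TPM + 0.1), and ran from -0.57 to 0.22 with single libraries left out. Rgs9 (-0.032) was 0.076 by limma voom, 0.017 by limma-trend on log2(TPM + 1) with or without the minimum, 0.020 on log2(TPM + 0.1), and -0.39 to 0.62 with single libraries left out. Ido1 (-0.30) was 0.031 by limma-trend on log2(TPM + 0.1) and -0.55 to 0.25 with single libraries left out. With single libraries left out, Pde10a ran from -0.37 to 0.36, Ppp1r1b from -0.29 to 0.30 and Six3 from -2.83 to 0.73. The stricter filter on low counts removed Ido1 and Six3, and the mean TPM minimum removed Six3.

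By edgeR 0 genes were called with all libraries, 0 without each library in turn and 0 at an adjusted p of 0.1, while DESeq2 called 64, among them 1 cortical excitatory gene (Lamp5) and 1 endothelial gene (Vwf) of the lists. Same-numbered libraries of the groups did not deviate together (r of 0.06, -0.02 and -0.01 across genes), so the main fit takes the replicate numbers as names only. These values cover all tested genes and cannot decide this for the members, of which 5 of 9 were highest in library 3 of both groups. With the number as a replicate block 0 genes were called (751 at an unadjusted p under 0.05, against 1040 without it), no call changed, and Rgs9 was 0.076. No library correlated best with the library of its own number. In overexpression library 1 the median of the members minus that of the cortical genes was -4.01 log2 units in TPM and -4.84 in CPM. Depth limits Six3, Ido1 and Gpr6, which rest on fewer than 200 reads per library.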
